A study of Caenorhabditis elegans with 4 samples.

Results

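The low-level col collagens of adult C. elegans were 66 of 155 protein-coding genes named col- with a number, col-99 left out. They were chosen by their mean FPKM (fragments scaled to gene length and library size) over the 4 libraries, which had to be at least 0.5 and under 20. Of the remaining col genes, 37 were abundant, with a mean FPKM of 20 or more, and 52 lay under 0.5. The mean served as a level filter and is no finding. All 66 genes had at least 10 counts in at least 2 libraries and were tested, col-36 through the ketamine libraries alone. In 5 genes (col-36, col-41, col-156, col-58 and col-115) the controls alone had a mean FPKM under 0.5, so that they were selected on high ketamine values and had to differ, while 0 genes entered through the controls in this way. Just inside the limits lay col-137 (mean FPKM 0.568), col-36 (0.653), col-71 (18.9) and col-96 (19.8), and just outside lay col-177 (0.459), col-165 (0.481), col-118 (20.2) and col-138 (20.6).

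Wild-type Bristol N2 worms were grown at 25 °C from the first larval stage on bacteria-seeded plates, and RNA of whole worms at adult day 1 was sequenced as stranded mRNA libraries. The 2 ketamine libraries came from worms given 2.5 mM ketamine, an anaesthetic and NMDA receptor blocker, and the 2 control libraries from worms given M9 buffer as vehicle. The sources used here do not say whether the libraries of a group came from separate cultures, so p-values measure the spread between these libraries, which may be technical. Slower growth and mixed stages were described for ketamine-treated plates of this study, and developmental stage and ketamine cannot be told apart in these libraries.

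The nematode cuticle is an extracellular matrix secreted at its outer face by the epidermis, and most of it is collagen. Cuticle collagens are short proteins with Gly-X-Y repeats and conserved cysteines, which are hydroxylated, trimerised, trimmed and cross-linked. Their genes form a large family, many members are transcribed in waves that accompany each molt, and different members are used in larval, dauer and adult cuticles. Only a few members are known from mutants with blistered, short or rolling bodies, and for most of the genes described here no single role is known.

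The libraries held 34533449 and 29192110 counts under ketamine and 43419202 and 36241505 counts in controls. Control 1 stood apart: among all 15793 genes tested, 2135 were at least 2-fold higher in control 2 than in control 1 and 897 at least 2-fold lower. Markers of epidermis, intestine, body wall muscle, neurons and germline were detected in every library and none of them was at 0. Adult expression was present in each library, where the yolk genes vit-1 to vit-6 summed to 65173 and 65060 CPM (counts scaled to library size by edgeR's TMM method) under ketamine and to 42820 and 76883 CPM in controls. The adult collagen col-19 stood at 849 and 725 CPM under ketamine, against 310 and 1556 CPM in controls. RNA came from whole worms, so that more cells of a type and more RNA per cell cannot be told apart. The 5 epidermal markers summed to 155 and 160 CPM under ketamine, against 121 and 151 CPM in controls, and their log2 fold changes (ketamine over control) ran from -0.16 for elt-1 to 0.25 for lin-26 with a median of 0.12.

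The low-level col genes lay higher under ketamine as a group, but no single gene passed the adjusted test of edgeR. Their summed level was 817 and 440 CPM in ketamine 1 and 2, against 150 and 426 CPM in control 1 and 2. Ketamine 1 was thus above both controls, and ketamine 2 was close to control 2 and well above control 1. These sums were 0.0805% and 0.0435% of all counts under ketamine and 0.0159% and 0.0412% in controls. The median FPKM of the 66 genes was 9.24 and 5.95 under ketamine, against 1.57 and 4.28 in controls.

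In the quasi-likelihood test of edgeR, 63 of 66 genes had a log2 fold change (ketamine over control) above 0, where 49.5% of all tested genes did. The median was 1.32, or 2.49-fold, with quartiles of 0.647 and 1.63, against a median of -0.01 over all tested genes. The change was at least 2-fold up for 43 genes, lay between 0 and 1 on the log2 scale for 20 and was below 0 for 3. At a Benjamini-Hochberg adjusted p under 0.05 and a 2-fold change, 0 of 66 genes were higher, against 0.095% of all tested genes, and 0 were lower, against 0.0%. The lowest adjusted p of a member was 0.411. At an unadjusted p under 0.05 and a 2-fold change, 14 genes (21.2%) were higher, against 2.05% of all tested genes, and 0 were lower, against 1.63%. Of these 14, 4 were among the 5 genes selected on high ketamine values, and without those 5 it was 10 of 61 genes (16.4%), with a median log2 fold change of 1.28. With DESeq2, 3 genes (4.55%) were higher at an adjusted p under 0.05, against 0.69%, and 30 (45.5%) at an unadjusted p, against 2.32%. The 30 include all 5 genes selected on high ketamine values. Without those 5, 2 of 61 genes were higher at an adjusted p by DESeq2. An exact permutation test of 2 against 2 libraries cannot give a two-sided p under 0.333 for a single gene.

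**Figure D1:**
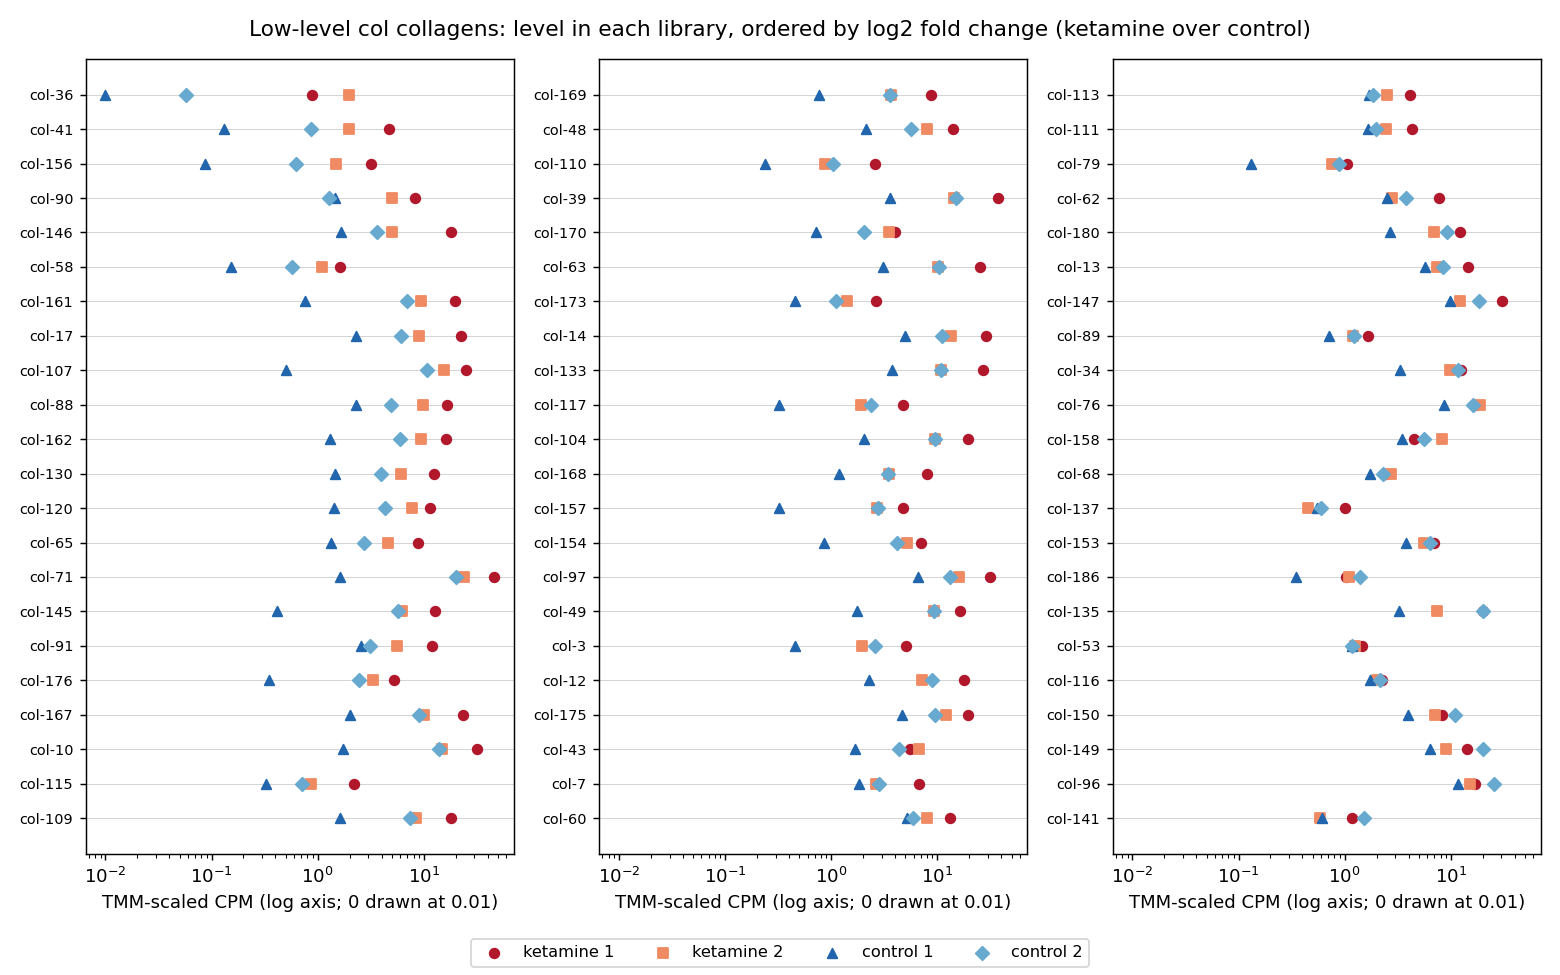
Level of each of the 66 low-level col genes in the 4 libraries, as TMM-scaled CPM on a log axis, ordered by log2 fold change from the upper left to the lower right. Ketamine 1 (red circles) was highest for 56 genes and control 1 (dark blue triangles) lowest for 63, while ketamine 2 and control 2 often lay next to each other.

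By DESeq2 with adjusted p, though not by edgeR, 3 genes passed upward: col-90, col-88 and, as one of the genes selected on its ketamine values, col-36. col-90 (C29E4.1, chromosome III, 7948838 to 7950067, WBcel235) had 282 and 144 counts under ketamine, against 67 and 45 in controls. Both ketamine libraries lay above both controls, and the controls were close to each other. The means were 6.64 ± 2.33 CPM under ketamine and 1.37 ± 0.119 CPM in controls (SD, n = 2 each). Its log2 fold change was 2.27 ± 0.37 (standard error), with an adjusted p of 0.411 by edgeR and of 0.000127 by DESeq2. It was the one low-level col gene that edgeR called without control 1, at a log2 fold change of 2.34 and an adjusted p of 0.0334. Over all alternatives its adjusted p ran from 0.000127 to 1.0. It shares 88 bases with let-754 on the opposite strand, which had 5837 and 4864 counts under ketamine and 7586 and 6138 in controls.

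col-36 (C27H5.5, chromosome II, 7167513 to 7168662) had 30 and 57 counts under ketamine, against 0 and 2 in controls. It was nearly silent in both controls, and it was the gene with the largest fold change of the 66. The ratio of summed CPM was 56.1, with a 95% interval of 15.1 to 470.0 that covers counting error only. Its adjusted p was 0.557 by edgeR and 0.00186 by DESeq2, but it passed both the count filter and the FPKM limit through ketamine alone, so that these values are a description. Unlike most of these genes it was higher in ketamine 2 than in ketamine 1.

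col-88 (W05G11.3, chromosome III, 41061 to 42018), a gene of 1 exon, had 557 and 284 counts under ketamine, against 106 and 173 in controls. The groups did not overlap, and the means were 13.1 ± 4.61 CPM under ketamine and 3.62 ± 1.87 CPM in controls (SD, n = 2 each). Its log2 fold change was 1.86 ± 0.49, with an adjusted p of 0.748 by edgeR and 0.0257 by DESeq2.

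In the next 9 genes by unadjusted p the lower ketamine library lay above the higher control in CPM, as it did in 23.1% of all tested genes. These genes, like those described before them, were picked by small p-values, which favours groups that do not overlap. The lack of overlap is therefore a description. All 9 had an edgeR adjusted p of 0.748. col-91 had 410 and 161 counts under ketamine, against 118 and 108 in controls, a log2 fold change of 1.64 ± 0.44. col-65 had 302 and 132 counts under ketamine, against 62 and 96 in controls (1.72 ± 0.52). Like col-90, col-91 had controls that were close to each other. col-41, a collagen described as a target of TGF-beta signalling in worms, had 160 and 57 counts under ketamine, against 6 and 30 in controls (2.80 ± 0.93). col-156 had 108 and 43 counts under ketamine, against 4 and 22 in controls (2.75 ± 0.92). These 2 genes had the largest log2 fold changes after col-36, and in both the control libraries themselves differed several-fold. Their controls had mean FPKM of 0.355 (col-41) and 0.36 (col-156), under the limit, so that their inclusion rested on ketamine and their fold changes are a description.

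For the rest of the genes with the smallest p, the groups did not overlap in CPM either, which their choice by p favours. col-120 had 392 and 223 counts under ketamine, against 65 and 151 in controls (log2 fold change 1.76 ± 0.59), and col-17 had 759 and 262 counts under ketamine, against 107 and 215 in controls (1.90 ± 0.65). col-146 had 616 and 144 counts under ketamine, against 77 and 126 in controls (2.14 ± 0.74). In col-146 most of the difference lay in ketamine 1, as ketamine 2 was little above control 2. col-130 had 422 and 176 counts under ketamine, against 67 and 139 in controls (1.78 ± 0.62). col-60 had 454 and 232 counts under ketamine, against 238 and 207 in controls, and did not reach 2-fold on the scaled values (0.95 ± 0.33). Its controls were nearly equal at 5.17 and 5.92 CPM.

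At the other end of the list, 3 genes had negative values and 3 lay closest above 0, and in all 6 the difference was smaller than its standard error. col-141 had 40 and 17 counts under ketamine, against 28 and 53 in controls (log2 fold change -0.25 ± 0.63). col-96 had 578 and 442 counts under ketamine, against 541 and 899 in controls (-0.21 ± 0.41). col-149 had 484 and 259 counts under ketamine, against 295 and 704 in controls (-0.19 ± 0.59). In each of these genes control 2 was the highest library. col-150, which neighbours col-149, had 283 and 203 counts under ketamine, against 184 and 380 in controls (0.05 ± 0.51). col-116 had 76 and 58 counts under ketamine, against 80 and 75 in controls (0.13 ± 0.31), and col-53 had 50 and 36 counts under ketamine, against 54 and 41 in controls (0.21 ± 0.34). The last pair was the flattest across all 4 libraries, col-116 between 1.74 and 2.23 CPM and col-53 between 1.17 and 1.47 CPM. The lowest gene inside the limits, col-137, had 34 and 13 counts under ketamine, against 25 and 21 in controls (0.35 ± 0.53).

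The remaining 44 genes held between 6 and 1262 counts in a library. Their log2 fold changes ran from 0.24 to 1.96 with a median of 1.27. Both ketamine libraries were above both controls in 24 of the 44, against 23.1% of all tested genes. An unadjusted p under 0.05 with a 2-fold change upward was reached by 3 (col-58, col-48 and col-170), against 2.05% of all tested genes. The 24 include col-58, which had the highest log2 fold change of these genes, and col-115, both selected on high ketamine values. The longest gene, col-135, with 1980 coding bases against a median of 902, had 681 and 214 counts under ketamine, against 149 and 699 in controls, so that each group held 1 high and 1 low library.

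The spread between libraries of a group was large for these genes, with control 1 at the low end. Both ketamine libraries were above both controls for 40 of 66 genes (60.6%), against 23.1% of all tested genes, and both were below for 0, against 20.6%. Without the 5 genes selected on high ketamine values, both were above for 35 of 61. The order ketamine 1, ketamine 2, control 2, control 1 was held by 35 genes, and the order ketamine 1, control 2, ketamine 2, control 1 by 19. Ketamine 1 was the highest library for 56 genes, ketamine 2 for 5 and control 2 for 5. Control 1 was the lowest library for 63. Control 2 exceeded control 1 in 65 of 66 genes, by a median of 1.51 in log2 CPM, which is as large as the median fold change between groups. The difference between group means was larger than both gaps within groups for 22 genes and larger than the control gap for 25. Both counts include the 5 genes selected on high ketamine values, and the share over all tested genes was not computed.

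The gap between controls was widest for col-107, col-145 and col-71. col-107 had 855 and 451 counts under ketamine, against 23 and 376 in controls. col-145 had 431 and 179 counts under ketamine, against 19 and 200 in controls. col-71 had 1562 and 683 counts under ketamine, against 75 and 702 in controls. Ketamine 2 and control 2 were close in col-145 (6.2 and 5.72 CPM) and col-71 (23.7 and 20.1 CPM), and stood at 15.6 and 10.7 CPM in col-107. The log2 fold changes of col-107, col-145 and col-71 were 1.87 ± 1.25, 1.64 ± 1.13 and 1.69 ± 1.11. In the same order they were 0.9, 0.7 and 0.77 without control 1, and 1.48, 1.02 and 1.13 without ketamine 1.

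Set side by side, ketamine 1 exceeded control 1 by a median of 2.71 in log2 CPM and control 2 by 1.15. Ketamine 2 exceeded control 1 by a median of 1.67 and control 2 by 0.17. Ketamine 2 was above control 2 in 41 of 66 genes, and the 2 libraries lay within 2-fold of each other in 59. Ketamine 1 exceeded ketamine 2 by a median of 0.93. With control 1 left out, the log2 fold changes had a median of 0.74, and 13 genes passed at an unadjusted p with a 2-fold change, against 1.96% of all tested genes. With ketamine 1 left out, the median was 0.72 and 3 genes passed, against 1.05%. With control 2 left out, and control 1 as the lone control assumed to vary as the ketamine libraries do, the median was 2.33 and 49 genes (74.2%) passed at an adjusted p, against 10.9% of all tested genes.

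**Figure D2:**
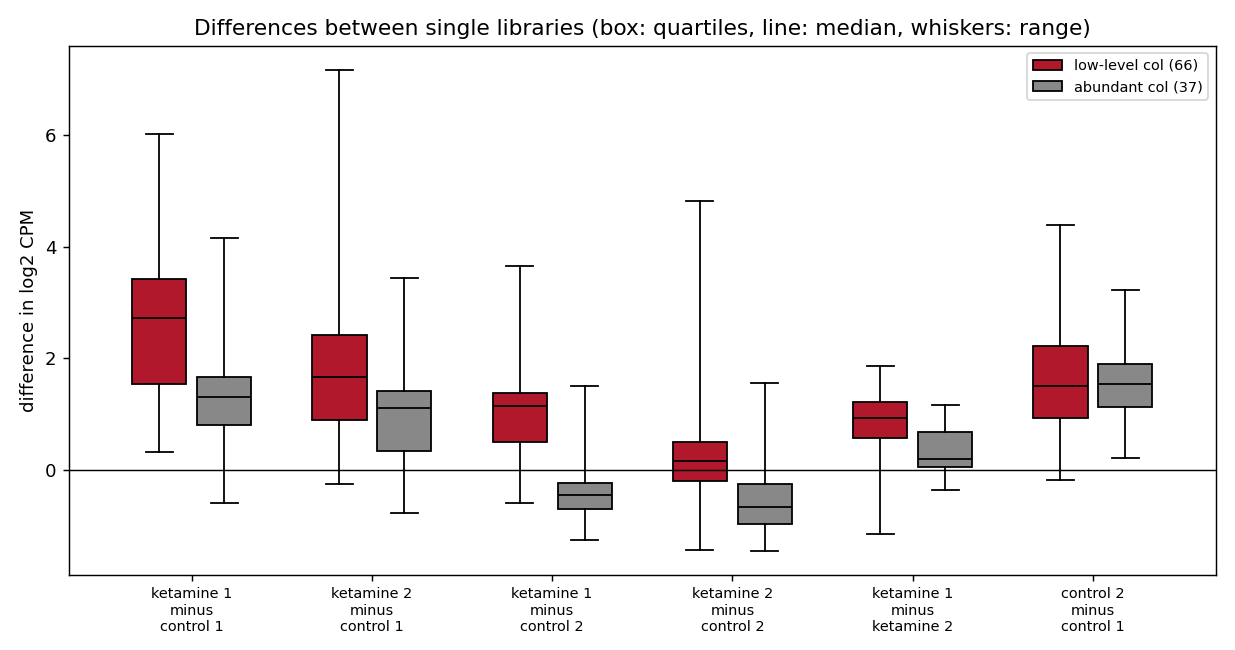
Differences in log2 CPM between single libraries for the 66 low-level col genes (red) and the 37 abundant ones (grey), with the box at the quartiles, the line at the median and whiskers over the whole range. Low-level genes in ketamine 2 lay near control 2 (median 0.17), while control 2 exceeded control 1 in both classes (medians 1.51 and 1.54).

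The abundant col genes had a similar gap between controls, and over all 4 libraries their fold changes centred on 0. The median log2 fold change was 0.01, with 19 of 37 above 0, but it was -0.63 without control 1 and 1.22 without control 2. It was -0.02 without ketamine 1. At an unadjusted p with a 2-fold change 4 were higher, against 2.05% of all tested genes, and 1 was lower, against 1.63%. Control 2 exceeded control 1 by a median of 1.54 in them, against 1.51 in the low-level genes. Against control 2, ketamine 1 and ketamine 2 had median differences of -0.45 and -0.67 in log2 CPM. Set against the abundant genes, the low-level genes held 37.9 and 21.7 CPM per 1000 CPM of abundant col transcripts under ketamine, and 10.9 and 13.3 in controls. Between ketamine 2 and control 2 this ratio differed by its denominator, since the low-level sums were close (440 and 426 CPM) and the abundant sums were 20300 CPM in ketamine 2 and 32000 CPM in control 2. The ratio therefore does not show the low-level genes higher in ketamine 2 than in control 2. The difference between the 2 classes was not tested.

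Genes just above the limit of 20 FPKM had fold changes like those just below it. The 10 abundant genes with a mean FPKM from 20.2 to 51.2 all had log2 fold changes above 0, with a median of 1.3, while 9 of the 27 genes from 75.4 to 1880.0 did, with a median of -0.15. This split at 60 FPKM was chosen after the values were seen and carries no test. The ends of the upper part were col-95, with 323 and 414 CPM under ketamine, against 39.4 and 141 CPM in controls (2.03 ± 0.62), and col-124, with 983 and 864 CPM under ketamine, against 1474 and 2355 CPM in controls (-1.05 ± 0.28). Among the 66 low-level genes the level gave no order, and Spearman's rho of log2 fold change with mean FPKM was 0.0535 across genes that share the same 4 libraries. Of the 52 genes under 0.5 FPKM, 12 had counts enough for the test, and all 12 were above 0 with a median of 1.80. Upward, 6 passed (unadjusted p under 0.05, 2-fold), against 2.05% of all tested genes. These were col-165, col-121, col-74, col-50, col-83 and col-54. Each had under 10 counts in both controls, so it entered the test through the ketamine libraries alone and had to lie higher there. The count of 6 is therefore a description. A gene of so low a mean enters the test mostly by being high in some library.

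**Figure D3:**
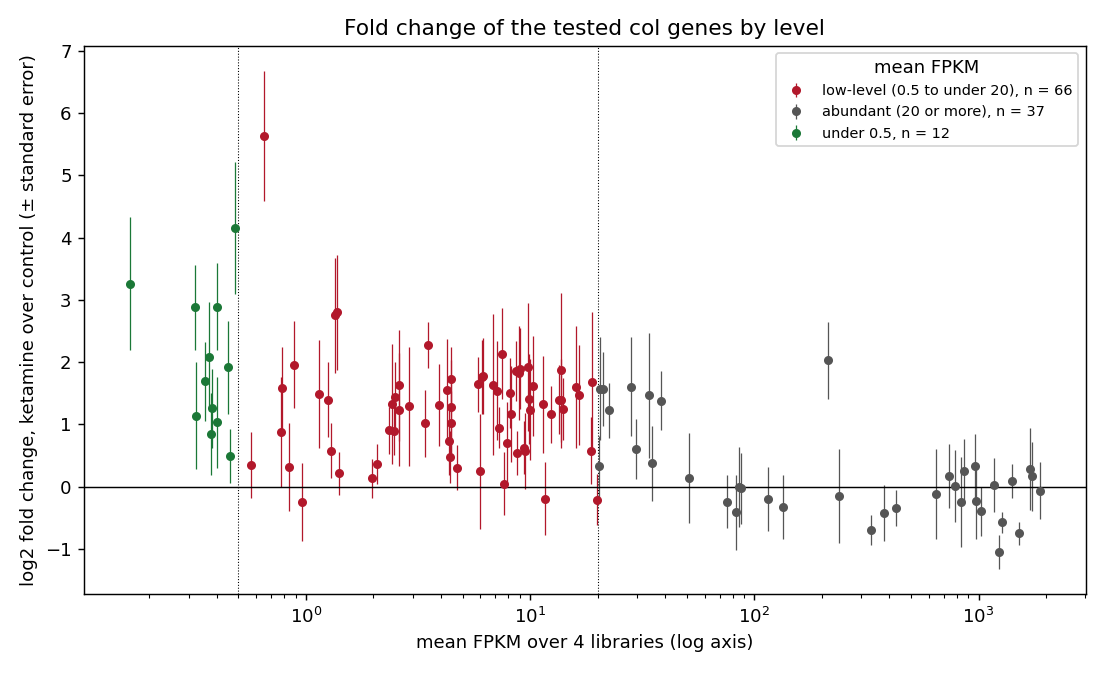
Log2 fold change (ketamine over control, bars are standard errors) against mean FPKM over the 4 libraries on a log axis for the tested col genes, in 3 level classes divided by dotted lines at 0.5 and 20 FPKM. Low-level genes lie mostly between 0 and 2 with col-36 at 5.63, and most abundant genes above about 60 FPKM lie around 0, with col-95 at 2.03 and col-124 at -1.05 as the ends of their range.

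The 66 genes were spread over all chromosomes, with 9 on I, 7 on II, 6 on III, 17 on IV, 17 on V and 10 on X, and the median log2 fold change per chromosome ran from 1.17 on V to 1.47 on II. Coding lengths ran from 831 to 1980 bases, and 55 genes had between 800 and 1000. The 6 genes of 1 exon had a median log2 fold change of 1.49, the 36 of 2 exons 1.36 and the 24 of 3 or more exons 0.99. The 20 genes that overlap a gene on the opposite strand had a median of 1.48 and the other 46 a median of 1.28. Whether reads were counted by strand is not given in the sources used here, so that reads of such gene pairs cannot be told apart. Among the named genes the longest overlaps were those of col-41 (1443 bases, ucr-2.2), col-91 (1304, ncr-2), col-130 (1012, ugt-65) and col-107 (995, C34H4.5). Counts in ketamine 1, ketamine 2, control 1 and control 2 were 2506, 2365, 2270 and 4147 for ucr-2.2. They were 111, 80, 201 and 131 for ncr-2, and 117, 135, 229 and 209 for ugt-65. C34H4.5 had 308, 240, 74 and 281 counts, lowest in control 1 as col-107 was.

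There were 18 genes in 8 runs of neighbours, each within 5000 bases of the next. In 6 of the 7 pairs both genes had the same coding length, as did the first and the last pair of the run of 4. Whether these neighbours are alike in sequence, and how the counting divided any shared reads, was not tested. col-117 and col-3, on chromosome IV and 629 bases apart, both had 897 coding bases and log2 fold changes of 1.33 ± 0.97 and 1.23 ± 0.90. col-145 and col-10 on chromosome V had 1.64 ± 1.13 and 1.60 ± 0.98. The run of col-167, col-168, col-169 and col-170 on chromosome X (6323297 to 6332686), all of 1 exon, had 1.61 ± 0.80, 1.31 ± 0.66, 1.54 ± 0.83 and 1.45 ± 0.55.

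Other neighbours were less alike. col-146 had a log2 fold change of 2.14 ± 0.74 and its neighbour col-147, at 1259 bases, 0.58 ± 0.54. col-147 had 1028 and 351 counts under ketamine, against 457 and 646 in controls, so that the groups overlapped. col-149 and col-150 both lay near 0, and col-12 (1.17 ± 0.77) and col-13 (0.63 ± 0.42), a tandem duplicate pair, both lay above it. col-7, known for its expression in adults, had 1.02 ± 0.54 and its neighbour col-62 0.73 ± 0.55, and col-79 and col-39 had 0.88 ± 0.88 and 1.47 ± 0.81. No difference between neighbours was tested.

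**Figure D4:**
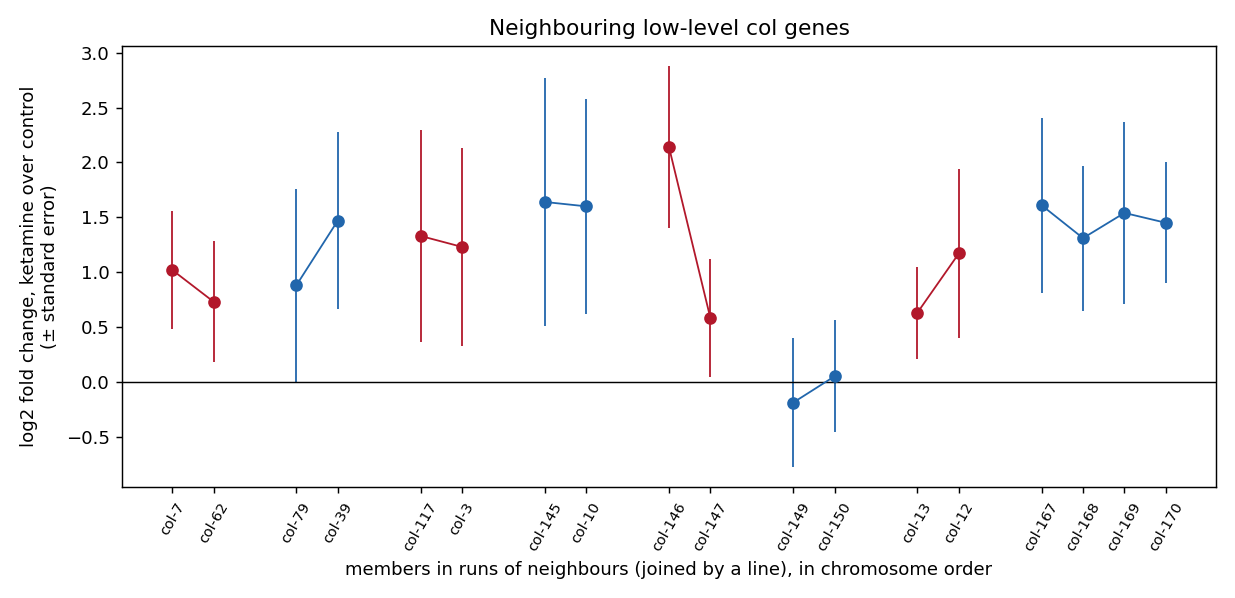
Log2 fold change (ketamine over control, bars are standard errors) of the 18 low-level col genes in 8 runs of neighbours, in chromosome order, with the genes of a run joined by a line. The run of col-167 to col-170 lies between 1.31 and 1.61, col-149 and col-150 lie near 0, and col-146 (2.14) lies above col-147 (0.58).

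The collagens known from mutants had positive fold changes, which also depended on single libraries. All 6 furrow collagens, which form the ring-shaped grooves of the cuticle, had log2 fold changes above 0 with a median of 1.17. At an adjusted p 0 passed by edgeR and 1 by DESeq2. By edgeR 2 passed upward (unadjusted p under 0.05, 2-fold), against 2.05% of all tested genes. dpy-3 was one of them, with 123 and 80 counts under ketamine, against 15 and 32 in controls (2.38 ± 0.57). Without control 1, control 2 or ketamine 1 the furrow median was 0.80, 1.61 or 0.79. All 14 other named cuticle collagens were above 0 with a median of 1.53, and 3 passed upward by the same rule and 0 at an adjusted p. Without control 1, control 2 or ketamine 1 their median was 1.01, 2.39 or 0.90, and ketamine 2 exceeded control 2 by a median of 0.37 in log2 CPM in them and of 0.36 in the furrow collagens. Among them was rol-6, known from rolling mutants, with 340 and 117 counts under ketamine, against 77 and 111 in controls (1.54 ± 0.57). bli-1, a strut collagen, had 456 and 164 counts under ketamine, against 31 and 152 in controls (1.94 ± 0.93).

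The genes of collagen processing and cross-linking lay near or below 0. Of 12 listed genes 11 were tested, and 0 passed in either direction by that rule. Their median log2 fold change was -0.26, from -0.71 for doxa-1 to 0.42 for dpy-18, with 3 above 0. dpy-18, a prolyl 4-hydroxylase subunit, had 50.4 and 46.7 CPM under ketamine, against 21.8 and 50.6 in controls (0.42 ± 0.42). phy-2, the second such subunit, had 17.3 and 16.5 CPM under ketamine, against 26.0 and 24.6 in controls (-0.58 ± 0.19). Of 15 molting and matrix genes 2 passed upward and 0 downward, mlt-9 (1.39 ± 0.42) and qua-1 (1.12 ± 0.43), and the list's median was 0.72. Over all tested genes 2.05% passed upward and 1.63% downward, and 0 of the 15 passed at an adjusted p.

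Of 13 epidermal and molting regulators 1 passed upward, against 2.05% of all tested genes, and 0 downward, against 1.63%. At an adjusted p 0 passed, and the median was 0.12. The gene that passed upward was bed-3, a zinc-finger regulator of molting, with 207 and 134 counts under ketamine, against 103 and 107 in controls (1.02 ± 0.32). lin-42, the period homologue whose transcript cycles with the molts, had 426 and 258 counts under ketamine, against 34 and 257 in controls, so that it was low in control 1 as the collagens were. nhr-23, a nuclear receptor of the molting cycle, had 73.8 and 66.4 CPM under ketamine, against 80.8 and 59.7 in controls. Sperm transcripts (6 msp genes) summed to 58.7 and 48.4 CPM under ketamine, against 91.5 and 83.1 in controls. Of the 6 yolk genes, vit-1 (-1.18 ± 0.28) and vit-3 (-1.03 ± 0.21) passed downward at an unadjusted p, against 1.63% of all tested genes, and 0 at an adjusted p. The part of stage or of control 1 in the collagen values was not tested beyond the values without single libraries.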

How the data were processed

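RNA-seq of 4 libraries of whole N2 worms (2 ketamine, 2 control) was used. Per the study's methods and labels, the authors aligned paired reads to WBcel235 with HISAT2 2.0.5, assembled them with StringTie 1.3.3b and counted them with featureCounts 1.5.0-p3. They deposited raw counts per gene, without normalization, and FPKM values of the same 46643 rows. The strand setting and the treatment of reads shared by similar genes are not given in the sources used here. WT columns were assigned to the control titles of equal number. A WormBase identifier and with it a symbol was found for 46183 rows. Coordinates are those of the authors' table.

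Counts were tested with edgeR 4.0.16 in R 4.3.3 (TMM, quasi-likelihood F-test, 15793 genes with 10 or more counts in 2 or more libraries, Benjamini-Hochberg over all of them, adjusted p under 0.05 and at least 2-fold). Standard errors were derived from the fold change and its F statistic. DESeq2 1.42.0, limma 3.58.1, other scalings, filters and limits, a replicate block, the removal of each library and, added after seeing the data, the removal of genes with a control mean FPKM under 0.5 were alternatives. The fits were run on simulated counts with 200 changed genes and the same dispersion for all genes. The simulation had no library set apart as control 1 was. It therefore cannot show how the tests perform on these libraries. Intervals cover counting error only. The members and lists were chosen with earlier results of these data known. Named genes were those called by edgeR or DESeq2, the 12 with the smallest p, the 6 with the lowest fold change, those at the limits of the filter and the 3 with the widest control gap. Protein and promoter sequences were not analysed here.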

Additional observations from a re-analysis of the deposited data

How the results depend on the processing

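The count of low-level col genes higher at an adjusted p (0 with edgeR) was 3 with DESeq2, 2 without a count filter, and 0 to 49 when 1 library was left out. It was 1 without control 1 and 49 without control 2. The count at an unadjusted p (14) was 30 with DESeq2, 32 without a count filter and 3 to 51 when 1 library was left out, 3 without ketamine 1, 51 without control 2 and 30 without ketamine 2. The median log2 fold change (1.32) ran from 0.72 to 2.33 when 1 library was left out. With the replicate number as a replicate block, 23 genes were higher at an unadjusted p, 0 at an adjusted p, and the median was 1.47. Same-numbered libraries correlated at r = 0.089 in their deviations from the group means, over all tested genes. With 2 libraries a group, both pairs must give the same value, so it cannot decide whether the libraries were paired. The numbers were not taken as pairs. Leaving out the 5 genes with a control mean FPKM under 0.5, an alternative chosen after seeing the data, gave 10 genes at an unadjusted p. In all, 89 alternative values of counts and medians stayed within 1.5 times or 1 SD (0.77 in log2 CPM) of those reported, and 11 did not. The limit of 1 SD was wide, since the medians of 0.74 without control 1 and 0.72 without ketamine 1 lay within it. The 89 also include the counts of genes lower under ketamine, which were 0 in every setting.

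Among named genes, 274 alternative values kept direction and side of the adjusted p threshold, 22 passed it and 10 changed sign. Most of the 22 came from leaving out control 2, which leaves a single control library. They include col-150 at a log2 fold change of 0.95, under 2-fold. The sign changed for col-150 with upper-quartile scaling (-0.03). When 1 library was left out, log2 fold changes ran from -0.84 to 0.55 (0.16 without ketamine 2) for col-141, from -0.70 to 0.46 for col-96, from -0.82 to 0.86 (0.10 without ketamine 2) for col-149, from -0.53 to 0.95 (-0.08 without ketamine 1) for col-150, from -0.04 to 0.29 for col-116 and from -0.34 to 0.80 for col-137. With 2 libraries a group, 1 residual degree of freedom is left when a library is removed. Genes of few counts, such as col-36 with 2 in controls, are limited by depth.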
